A study of Mus musculus with 9 samples.

Results

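The 10 genes described here encode structural proteins of the outer dense fibres and the fibrous sheath of the mouse sperm tail. They were chosen by name: Odf1, Odf2, Odf3 and Odf4 for the fibres, and Akap3, Akap4, Fsip1, Fsip2, Ropn1 and Ropn1l for the sheath. They are 10 of the 32035 genes that had at least 1 transcript in the files, and all 10 passed the filter on low counts in every comparison. RNA of whole testis was sequenced in 9 samples from male mice of 15 weeks on a C57Bl6/N background, 3 in each of 3 groups, and no further agent or allele was named for any group. WT mice were labelled wildtype. Mice labelled Kpna6 (importin alpha7deltaIBB/deltaIBB), here Kpna6ΔIBB/ΔIBB, lack an early coding exon of Kpna6, the gene of the nuclear import adaptor importin alpha7, and make a truncated protein without the domain that binds importin beta. Mice labelled Kpna6 (importin alpha7-/-), here Kpna6-/-, carry a gene trap in the first intron. By the study's account an alternative first exon downstream of the trap still gives full-length protein in the germ cells of that line, so Kpna6-/- testis is a model of loss from the other testis cells and not from germ cells. The files were examined to see what the transcripts of the tail proteins do when the importin is truncated in all cells, and when it is lost outside the germ line.

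The sperm tail is built around a microtubule axoneme. Outer dense fibres are stiff, cysteine-rich cables that run alongside the axonemal doublets through the midpiece and most of the principal piece. In the principal piece they are wrapped by the fibrous sheath, made of longitudinal columns joined by ribs, which also holds glycolytic enzymes and protein kinase A on anchoring proteins. Spermatids transcribe most of these genes after meiosis and store part of the mRNA until the tail is assembled.

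Each library held between 24859751 and 31484692 estimated counts on genes, and the 10 genes together took between 0.891% and 0.905% of all TPM in WT, 0.804% to 0.818% in Kpna6ΔIBB/ΔIBB and 0.9% to 0.906% in Kpna6-/-. Kpna6 itself was at 201, 324 and 333 CPM in the WT libraries, 81.2, 85.3 and 81.8 in Kpna6ΔIBB/ΔIBB and 247, 249 and 262 in Kpna6-/-. CPM here are estimated counts relative to a common library total, after TMM scaling, which sets the bulk of genes to a common level in all libraries. The targeted gene fell in Kpna6ΔIBB/ΔIBB (log2 fold change -1.79, SE 0.153, edgeR adjusted p = 1.94e-05) and did not pass the test in Kpna6-/- (log2 fold change -0.18, SE 0.136, edgeR adjusted p = 0.586). Markers of the germ cells and somatic cells of testis were detected in every library. In bulk tissue, fewer cells of a type and less RNA per cell cannot be told apart. The labels number the replicates but do not say that each is a separate animal, so p-values measure the spread between these samples.

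Transcript levels were compared between genes in TPM, which corrects for length. In WT, Odf2 was the highest of the 10 at 3006 ± 74.1 TPM (SD, n = 3), rank 17 of all genes. Odf1 followed at 1908 ± 71.4 TPM and Ropn1l at 1582 ± 42.8 TPM. These held ranks 34 and 45. Then came Akap4 (798 ± 19.6 TPM), Ropn1 (613 ± 14.2 TPM), Akap3 (448 ± 30 TPM), Odf4 (303 ± 4.99 TPM) and Odf3 (233 ± 16.2 TPM). The rarest were Fsip1 at 86.8 ± 1.04 TPM and Fsip2 at 20.6 ± 0.85 TPM. No neighbours in this order overlapped in their 3 WT samples. The order was the same in Kpna6-/-, again with no overlap between neighbours. In Kpna6ΔIBB/ΔIBB, Ropn1l (1560 ± 25.8 TPM) stood above Odf1 (1530 ± 34 TPM), with overlapping samples, and the other 8 genes kept their places. The first place of Odf2 rests on the sum of all its transcripts. Of this sum, 14 transcripts, most of them partial, held 1045, 1007 and 928 TPM in WT. The 6 Odf2 transcripts with the usual end summed to 1923, 2011 and 1943 TPM in WT. These overlapped with the WT libraries of Odf1 (1826, 1937 and 1959 TPM).

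In Kpna6ΔIBB/ΔIBB testis 9 of the 10 transcripts fell and Odf4 alone did not. The falls lay between 0.702 and 0.905 of the WT level, largest for Ropn1, Odf3, Odf1 and Akap3 and smallest for Odf2 and Ropn1l. No member rose. By edgeR's quasi-likelihood test with Benjamini-Hochberg adjustment over 18797 genes, 18.9% of all genes were lower and 17.7% were higher at an adjusted p under 0.05, so a large share of the transcriptome moved and the 9 of 10 are read against that share. The median log2 fold change of the 10 genes was -0.39, against 0.009 for all genes tested. In CPM, the 3 Kpna6ΔIBB/ΔIBB samples all lay below the 3 WT samples for 9 of the 10 genes, an arrangement that 25.2% of all genes showed. In TPM, which are not TMM-scaled, this held for 7 of the 10 genes: Odf2 and Ropn1l overlapped and Odf4 was higher. The share of all genes with this arrangement was counted in CPM only, so the 7 in TPM cannot be read against a background.

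**Figure D1:**
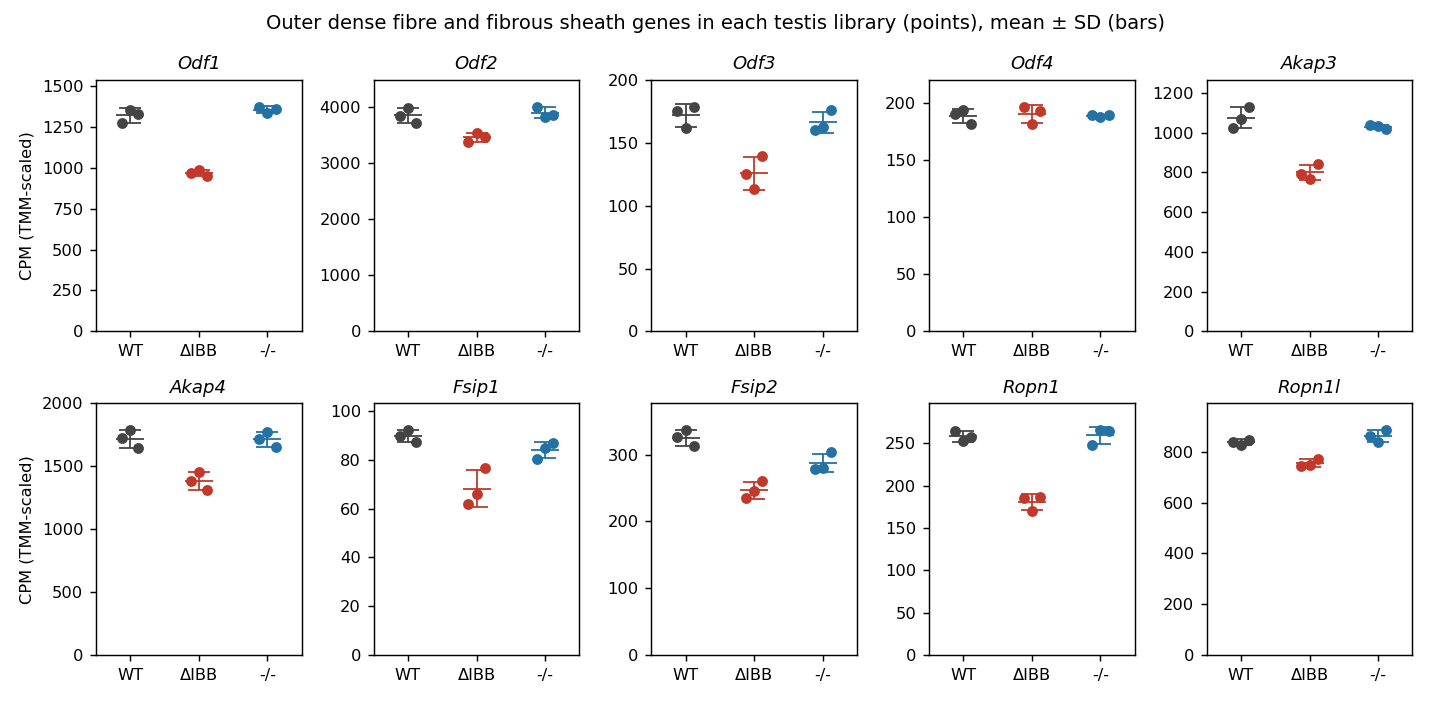
TMM-scaled CPM of the 10 genes in the 9 testis libraries (y axis, from 0; 1 panel per gene), with points for the 3 libraries of WT, Kpna6ΔIBB/ΔIBB (ΔIBB) and Kpna6-/- (-/-) and bars for mean ± SD. The ΔIBB points lie below the WT points in 9 panels and overlap them for Odf4. The -/- points stay near WT, all below it for Fsip1 and Fsip2.

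Among the fibre genes, Odf1 encodes a major cysteine-rich fibre protein related to small heat shock proteins. Its WT libraries were at 1273, 1357 and 1332 CPM and its Kpna6ΔIBB/ΔIBB libraries at 967, 987 and 954 CPM. The groups stood well apart. Odf1 fell to 0.736 of WT (log2 fold change -0.44, SE 0.0339, edgeR adjusted p = 1.39e-05).

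Odf3, whose protein lies along the sperm tail, was at 176, 162 and 179 CPM in WT and at 125, 113 and 140 CPM in Kpna6ΔIBB/ΔIBB. Every mutant library was below every WT library, although in relation to their mean the mutant libraries were further apart than those of Odf1. The fall was to 0.734 of WT (log2 fold change -0.45, SE 0.0704, edgeR adjusted p = 0.000657).

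Odf2 encodes the other main fibre protein, and its longer splice forms encode cenexin, a protein of the centriole's distal appendages. It was at 3842, 3986 and 3721 CPM in WT and at 3369, 3535 and 3472 CPM in Kpna6ΔIBB/ΔIBB. The groups did not overlap, but the highest mutant library and the lowest WT library were close, and in TPM the highest mutant library (2935) lay above the lowest WT library (2925). Odf2 fell to 0.901 of WT (log2 fold change -0.15, SE 0.0321, edgeR adjusted p = 0.00418), and this call was lost when libraries were scaled by their size only (log2 fold change -0.05, edgeR adjusted p = 0.147).

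Odf4, named with the fibre proteins, was the exception. WT libraries gave 191, 194 and 182 CPM and Kpna6ΔIBB/ΔIBB libraries 197, 182 and 193 CPM. The values interleaved (log2 fold change 0.02, SE 0.044, edgeR adjusted p = 0.802). In TPM the 3 mutant libraries (346, 319 and 338 TPM) were instead all above the 3 WT libraries (300, 308 and 300 TPM), and limma on log2(TPM + 1) called Odf4 higher (log2 fold change 0.14, adjusted p = 0.0362).

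The sheath scaffolds are Akap4 and Akap3, the main anchoring proteins of the columns and ribs. They hold the regulatory subunits of protein kinase A. Akap4, on the X chromosome, was at 1726, 1786 and 1643 CPM in WT and at 1384, 1452 and 1311 CPM in Kpna6ΔIBB/ΔIBB. The lowest WT library stood above the highest mutant library. It fell to 0.807 of WT (log2 fold change -0.31, SE 0.0428, edgeR adjusted p = 0.000288). Akap3 was at 1026, 1070 and 1131 CPM in WT and at 791, 768 and 843 CPM in the mutant. It fell to 0.747 of WT (log2 fold change -0.42, SE 0.0452, edgeR adjusted p = 6.23e-05). The groups were again apart.

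A promoter window of Akap3 and 1 of the 2 windows of Akap4 share a run of letters, shown here because both genes fell and both proteins build the same sheath. RefSeq start-site windows of 300 bases (250 before and 50 after the start, GRCm38.p6) were held for 8 of the 10 genes, 12 windows in all; Odf1 and Fsip1 had none. Among the 59 pairs of windows of different genes, the longest run of identical letters was 20 bases, between Akap3 and Akap4 on the same strand, and the next longest was 14 bases. The 20 bases occurred on either strand in 2 of 32851 RefSeq windows, these 2. The 100 bases before each start are given 5′ to 3′ on the + strand, with the shared run in capitals. The Akap3 stretch is chr6:126852998-126853097 and the Akap4 stretch is chrX:7067415-7067514.
Akap3: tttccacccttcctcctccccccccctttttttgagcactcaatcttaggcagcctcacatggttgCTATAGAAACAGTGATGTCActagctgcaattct
Akap4: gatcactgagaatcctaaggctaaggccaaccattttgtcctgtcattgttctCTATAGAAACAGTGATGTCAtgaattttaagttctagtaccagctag
The run spans bases 34 to 15 before the Akap3 start and bases 47 to 28 before the start of this Akap4 window. That start lies beside the annotated starts of the transcripts Akap4-201 and Akap4-202, which held 25.7% and 3% of the gene's TPM in WT. The transcript Akap4-203, with 71.4%, starts further downstream at chrX:7068213. The longest run that Akap3 shares with the other Akap4 window was 10 bases. It was found after the windows were compared and is a description of the letters only. Of the motifs searched on both strands, the full cAMP response element TGACGTCA was in 0 of the 12 windows and in 1.79% of all windows. Its shorter form TGACG was in 3 windows, 1 of Fsip2 and 2 of Odf2, and in 20.8% of all windows. GTTGCC, part of the X-box bound by RFX factors, was in the windows of Odf3 and Ropn1l, starting 65 and 20 bases before the start, and in 12.5% of all windows.

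Fsip1 and Fsip2 encode fibrous sheath interacting proteins, found through their binding to Akap4, and Fsip2 is a very large protein. Fsip2 was at 327, 336 and 313 CPM in WT and at 235, 245 and 260 CPM in Kpna6ΔIBB/ΔIBB. It fell to 0.761 of WT (log2 fold change -0.39, SE 0.0458, edgeR adjusted p = 9.63e-05), though limma on log2(TPM + 1) did not call it (log2 fold change -0.21, adjusted p = 0.059). Fsip1 was at 89.9, 92.1 and 87.2 CPM in WT and at 62, 66.2 and 76.6 CPM in the mutant. Its mutant libraries were the most spread of the 10 genes in relation to their mean. Fsip1 fell to 0.764 of WT (log2 fold change -0.39, SE 0.0698, edgeR adjusted p = 0.00147).

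Ropn1 and Ropn1l encode ropporin and its relative, small proteins that dock on anchoring proteins such as Akap3 in the way the kinase subunits do. Ropn1 had the largest fall of the 10 genes. It was at 265, 252 and 258 CPM in WT and at 186, 170 and 186 CPM in Kpna6ΔIBB/ΔIBB, with no library of either group near the other group. The mean was 0.702 of WT (log2 fold change -0.51, SE 0.0447, edgeR adjusted p = 2.13e-05). Ropn1l changed far less: it was at 839, 825 and 847 CPM in WT and at 744, 748 and 773 CPM in the mutant, or 0.905 of WT (log2 fold change -0.14, SE 0.0315, edgeR adjusted p = 0.00456). Its call was lost with library size scaling (edgeR adjusted p = 0.242), and in TPM its groups overlapped.

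Ratios of 2 genes within a library do not depend on how libraries are scaled. Ropn1 over Ropn1l in TPM was 0.395, 0.387 and 0.381 in WT, 0.325, 0.295 and 0.308 in Kpna6ΔIBB/ΔIBB and 0.366, 0.405 and 0.384 in Kpna6-/-. The mutant ratios lay below both other groups. Odf1 over Odf4 was 6.09, 6.28 and 6.54 in WT, 4.42, 4.9 and 4.42 in Kpna6ΔIBB/ΔIBB and 6.56, 6.38 and 6.55 in Kpna6-/-. Odf1 over Odf2 had means of 0.635 in WT, 0.536 in Kpna6ΔIBB/ΔIBB and 0.647 in Kpna6-/-, with the Kpna6ΔIBB/ΔIBB libraries all below WT. By contrast Akap4 over Akap3 overlapped between groups, with means of 1.79 in WT, 1.94 in Kpna6ΔIBB/ΔIBB and 1.86 in Kpna6-/-. For the 3 ratios whose groups were apart, the exact 2-sided permutation test of Kpna6ΔIBB/ΔIBB against WT gave p = 0.1, which is the smallest p that 3 against 3 samples allow, and for Akap4 over Akap3 it gave p = 0.4. With 3 samples a group this test cannot pass 0.05. Groups of 3 that lie apart always give its smallest value, so the permutation test adds nothing to that separation. Each of these 3 ratios sets a gene with a larger fall against 1 of the 3 members that moved least (Ropn1l, Odf4 and Odf2). Apart from being free of the scaling, they restate the unequal falls given above and are not a separate result.

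The choice of scaling set how far each member moved. Scaled by library size alone, the median log2 fold change of all genes in Kpna6ΔIBB/ΔIBB against WT was 0.107 in place of 0.009, the share of called genes that were lower was 30% in place of 51.6%, and 7 of the 10 members were called lower. On log2(TPM + 1) with limma, where the median of all genes was 0.096, 6 members were called lower and Odf4 higher. Odf1, Odf3, Akap3, Akap4, Fsip1 and Ropn1 were called lower under all of the 5 scalings plotted.

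**Figure D2:**
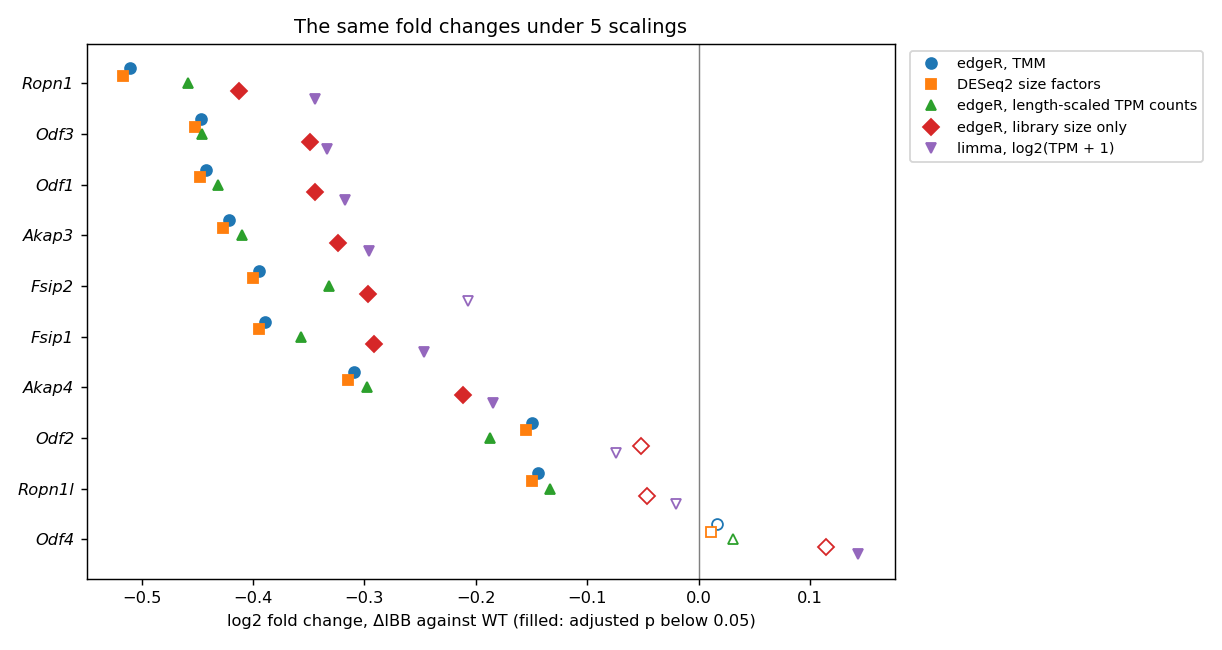
Log2 fold changes of the 10 genes in Kpna6ΔIBB/ΔIBB (ΔIBB) against WT (x axis) under 5 scalings, marked by shape and colour, filled where the adjusted p was below 0.05. Library size scaling and TPM shift every gene to the right; Ropn1 keeps the lowest value and Odf4 the highest under each, and Odf2 and Ropn1l lose their calls under both.

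In Kpna6-/- testis none of the 10 genes passed the test, and their log2 fold changes against WT lay between -0.18 and 0.04. Of all 18681 genes tested 1.6% were called in either direction by edgeR, and 2778 had an unadjusted p under 0.05. The smallest p among the members was that of Fsip2. Its Kpna6-/- libraries were at 278, 281 and 303 CPM, all below the WT libraries (log2 fold change -0.18, SE 0.0441, unadjusted p = 0.00141, edgeR adjusted p = 0.0657). Fsip2 was the only member with an unadjusted p under 0.05, and DESeq2 (adjusted p = 0.0062) and edgeR without the filter on low counts (adjusted p = 0.0221) called it lower. Fsip1 (log2 fold change -0.1, SE 0.0471, edgeR adjusted p = 0.371) and Akap3 (log2 fold change -0.06, SE 0.0374, edgeR adjusted p = 0.477) came next. The Kpna6-/- libraries of Fsip1 (80.31, 84.77 and 87.07 CPM) also lay below its WT libraries, the lowest at 87.21 CPM. The share of all genes with this arrangement was not counted. Odf1 had a log2 fold change of 0.04 (SE 0.0331) with Kpna6-/- libraries at 1375, 1335 and 1360 CPM. For Akap4 it was -0.0051 (SE 0.0379), with libraries at 1714, 1773 and 1655 CPM. A p above the threshold does not show that these levels were alike; the SEs of the 10 log2 fold changes ran from 0.0324 to 0.0506.

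The 2 mutant lines were then compared with each other, and this comparison shares its samples with the others. Against Kpna6-/-, Kpna6ΔIBB/ΔIBB was lower for the same 9 genes, and Odf4 did not pass (log2 fold change 0.0059, SE 0.0375, edgeR adjusted p = 0.928). Over 18752 genes, 16.8% were called lower and 13.5% higher, and for 22.7% the 3 Kpna6ΔIBB/ΔIBB libraries all lay below the 3 Kpna6-/- libraries in CPM, as they did for 9 of the 10 members. In TPM they did so for 6 members, while Fsip1, Fsip2 and Ropn1l overlapped and Odf4 was higher. For TPM the share of all genes was not counted. The median over the 10 genes was -0.31, beside 0.005 for all genes. Ropn1 (log2 fold change -0.53, SE 0.0447, edgeR adjusted p = 7.98e-06) and Odf1 (-0.49, SE 0.0284, edgeR adjusted p = 1.17e-06) had the lowest values. Odf3 had -0.41, Akap3 -0.37, Akap4 -0.31 and Fsip1 -0.3 on the log2 scale. Fsip2, which in CPM was lower in all 3 Kpna6-/- libraries than in WT without passing the test, differed by -0.22 (SE 0.0472, edgeR adjusted p = 0.0039). That call was lost with library size scaling (edgeR adjusted p = 0.0502), with length-scaled TPM counts (0.0842) and on log2(TPM + 1) (0.929 by limma). On log2(TPM + 1) limma also did not call Fsip1 (adjusted p = 0.239), Odf2 (0.137) and Ropn1l (0.274), and called Odf4 higher (log2 fold change 0.16, adjusted p = 0.0225). Ropn1l (-0.19) and Odf2 (-0.18) had the smallest falls. With library size scaling Odf4 was called higher than in Kpna6-/- (log2 fold change 0.11, edgeR adjusted p = 0.0458), where the share of called genes that were lower was 29% in place of 55.5%.

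**Figure D3:**
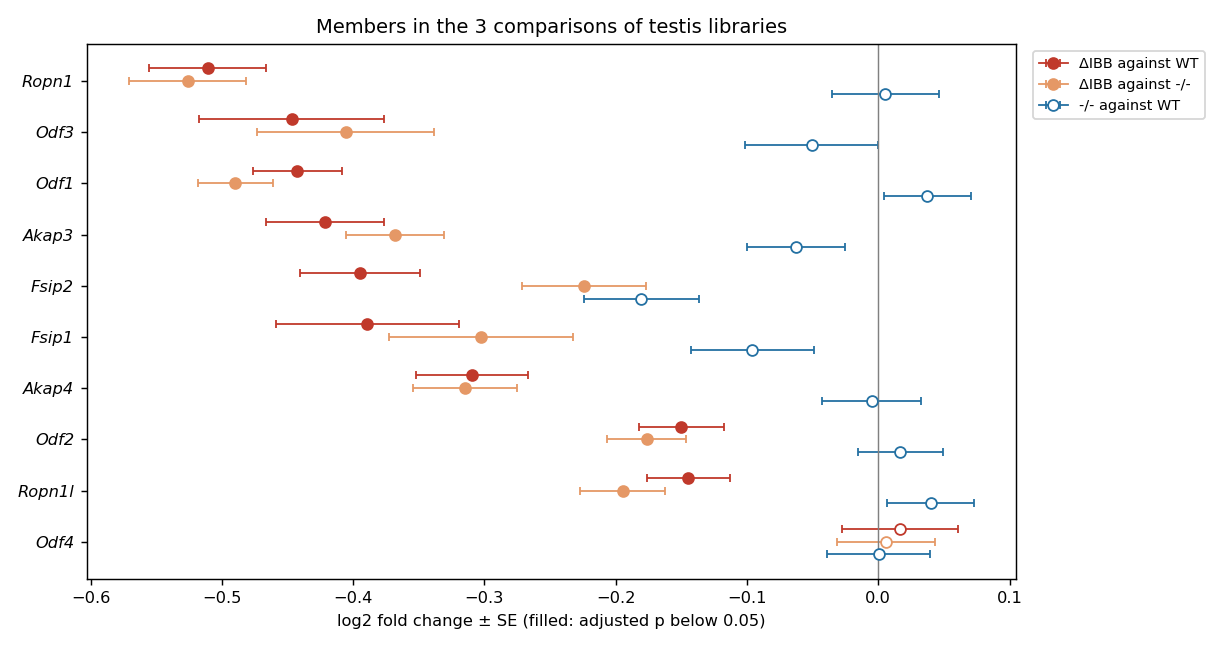
Log2 fold change ± SE (x axis) of the 10 genes from edgeR in 3 comparisons, coloured by comparison: Kpna6ΔIBB/ΔIBB (ΔIBB) against WT, ΔIBB against Kpna6-/- (-/-), and -/- against WT; filled points have an adjusted p below 0.05. The first 2 comparisons are filled and below 0 for 9 genes, -/- against WT is open throughout, and Fsip2 is the gene where -/- lies farthest below WT.

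The files list 47 transcripts of the 10 genes, of which 43 had a mean of at least 1 TPM in some group. Tested per transcript over 47577 transcripts, 15 of 44 tested member transcripts were lower in Kpna6ΔIBB/ΔIBB than in WT and 0 were higher. Of all 47577 transcripts, 5.78% were called lower and 1861 higher by edgeR. In Kpna6-/- against WT 0 of 43 were called, where 0.0577% of all transcripts were called in either direction by edgeR, and 2, Fsip2-203 and Ropn1-202, had an unadjusted p under 0.05. Against Kpna6-/-, 14 of 44 were lower in Kpna6ΔIBB/ΔIBB (4.91% of all transcripts) and 1 was higher (2.38%). The estimates split shared reads between isoforms, and the error of that split is not in the spread between libraries.

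The 3 Akap4 transcripts differ mainly in their first exons and share the large coding exon. All 3 fell in Kpna6ΔIBB/ΔIBB: Akap4-203, 71.4% of the gene's TPM in WT, by a log2 fold change of -0.25 (edgeR adjusted p = 0.0453), Akap4-201 by -0.38 (0.0203) and Akap4-202 by -0.72 (0.0304). In TPM the groups of Akap4-203 overlapped, at 594.5, 573.3 and 541.8 in WT and 513.6, 553.2 and 486.3 in the mutant. Both Ropn1 transcripts fell too. Ropn1-201 was at 432, 404 and 427 TPM in WT and at 316, 286 and 324 TPM in Kpna6ΔIBB/ΔIBB (log2 fold change -0.56, SE 0.0563, edgeR adjusted p = 0.00345). Ropn1-202, which has another first exon and an earlier end, was at 191, 193 and 192 TPM in WT and at 185, 171 and 167 TPM in the mutant (log2 fold change -0.25, SE 0.0505, edgeR adjusted p = 0.0271). The share of Ropn1-201 in the gene's TPM went from 68.6% to 63.9%, a difference that was not tested.

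For Odf1, Odf3, Akap3, Fsip1 and Fsip2 the most abundant transcript carried the fall. Odf1-201 had -0.43, Odf3-201 -0.46, Akap3-201 -0.41, Fsip1-202 -0.41 and Fsip2-203 -0.39 on the log2 scale, all with an edgeR adjusted p under 0.05. Ropn1l-201 missed the threshold (log2 fold change -0.13, edgeR adjusted p = 0.0525). None of the 4 Odf4 transcripts passed, with log2 fold changes from -0.07 to 0.15. Odf4-203 and Odf4-204, annotated as targets of nonsense-mediated decay, held 49.5% and 12.9% of the gene's TPM in WT. The transcripts annotated as coding, Odf4-201 and Odf4-202, had log2 fold changes of 0.014 and 0.152. The transcript that was higher in Kpna6ΔIBB/ΔIBB than in Kpna6-/- was Fsip2-201, annotated as a target of nonsense-mediated decay. It was at 1.91, 2.37 and 2.23 TPM against 1.23, 1.03 and 0.958 TPM (log2 fold change 0.89, SE 0.161, edgeR adjusted p = 0.0226). The WT libraries ranged over both, at 2.68, 1.51 and 0.853 TPM.

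The Odf2 transcripts did not all move alike: of 23 tested, 5 fell and 0 rose. Of all 47577 transcripts tested, edgeR called 5.78% lower and 1861 higher, so the 0 of 23 is not read as a result. Odf2-201, the most abundant with 33.2% of the gene's TPM in WT, was at 993, 1017 and 983 TPM in WT and at 1049, 1083 and 1043 TPM in Kpna6ΔIBB/ΔIBB (log2 fold change after TMM scaling -0.02, SE 0.0318, edgeR adjusted p = 0.729). Odf2-211, the next, was at 550, 607 and 573 TPM in WT and at 510, 534 and 513 TPM in the mutant and fell (log2 fold change -0.26, SE 0.044, edgeR adjusted p = 0.0151). Odf2-209 (-0.26, edgeR adjusted p = 0.0413), Odf2-207 (-0.28, 0.0253), Odf2-215 (-0.59, 0.00548) and Odf2-214 (-0.41, 0.05) fell as well, the last just under the threshold.

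Odf2-201 and Odf2-211 differ in their first exons and in 1 internal exon, which is shown because it separates the 2 main isoforms. The exon starts at the same base in both and ends after 69 bases in Odf2-201 and after 126 bases in Odf2-211, as annotated by GENCODE M21 on GRCm38. It lies at chr2:29893444-29893569 on the + strand. The 57 further bases, chr2:29893513-29893569, are coding and are in capitals, and the sequence was read from the reference transcript.
Odf2 exon: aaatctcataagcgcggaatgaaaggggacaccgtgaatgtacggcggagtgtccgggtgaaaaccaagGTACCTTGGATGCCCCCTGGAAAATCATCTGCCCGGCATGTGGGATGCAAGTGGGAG
Of the 25 Odf2 transcripts, 9 carry the 57 bases, 9 have the shorter exon and 7 have neither form. The classes were drawn after the transcript values had been seen, and Odf2-211 and Odf2-201, which the exon was chosen to separate, hold most of the first 2 classes, so their sums are given with no test. The ratio of the first class to the second in TPM was 0.432, 0.442 and 0.449 in WT, 0.41, 0.403 and 0.4 in Kpna6ΔIBB/ΔIBB and 0.445, 0.444 and 0.433 in Kpna6-/-. Every Kpna6ΔIBB/ΔIBB library was below every other library. The transcripts with neither form were lower too, at 677, 605 and 573 TPM in WT, 542, 550 and 541 TPM in Kpna6ΔIBB/ΔIBB and 561, 609 and 627 TPM in Kpna6-/-. Within the classes single transcripts differed, since Odf2-209 lacks the 57 bases and fell while Odf2-206 has them and had a log2 fold change of 0.0043.

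Odf2-206 is 1 of 5 transcripts that run on past the usual last exon through 4 further exons, the form that encodes cenexin. These 5 took between 3.91% and 4.18% of the Odf2 estimated counts in WT, 4.47% to 4.51% in Kpna6ΔIBB/ΔIBB and 3.85% to 4.19% in Kpna6-/-. The 6 transcripts with the usual end took 87.6% to 88.5%, 88.3% to 88.6% and 88% to 89.1% in the same order. The other 14, most of them partial transcripts, took 7.32% to 8.39%, 6.98% to 7.22% and 7.02% to 7.86%. The share of the longest form was thus higher in every Kpna6ΔIBB/ΔIBB library than in any other, and the share of these 14 was lower than in every WT library and overlapped with Kpna6-/-. These classes too were drawn after the values had been seen and were not tested.

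**Figure D4:**
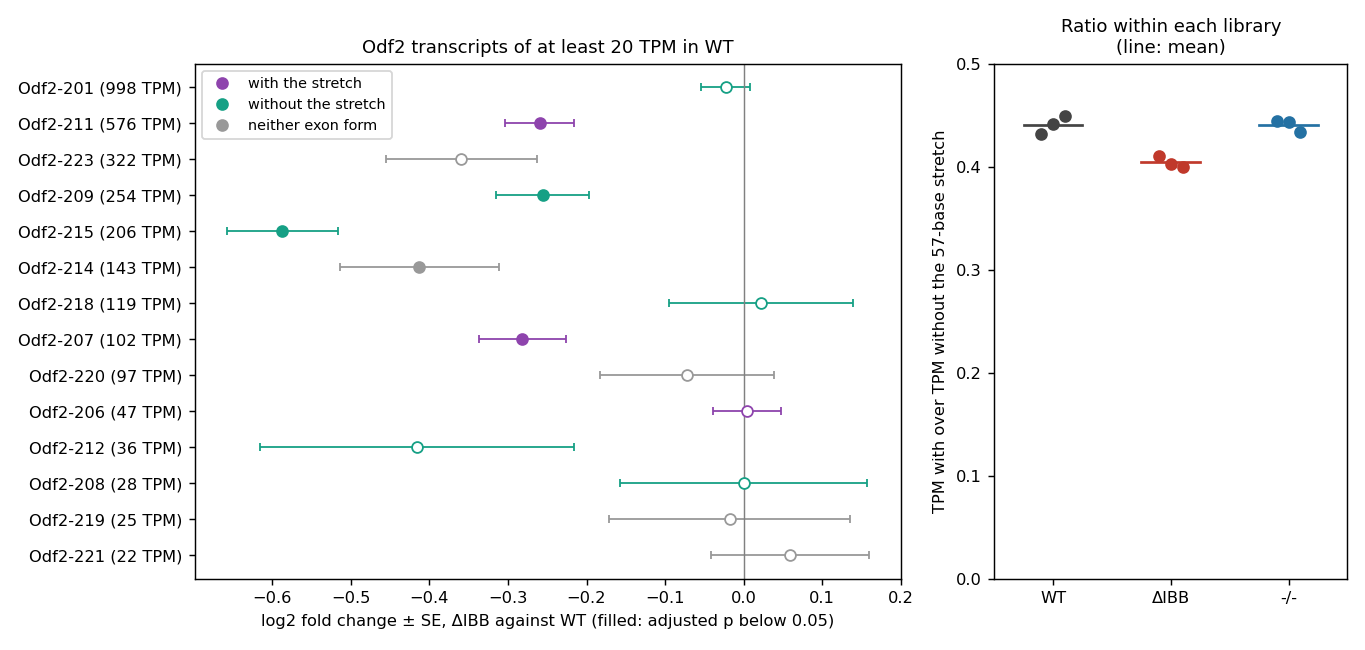
Left, log2 fold change ± SE of the Odf2 transcripts with at least 20 TPM in WT (Kpna6ΔIBB/ΔIBB against WT, edgeR), coloured by whether the transcript has the 57-base stretch, filled where the adjusted p was below 0.05; right, TPM of transcripts with over without the stretch in each library. Odf2-201 lies at -0.02 and Odf2-211 at -0.26, and the 3 ΔIBB ratios, 0.4 to 0.41, lie below the WT and -/- ratios.

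Genes that work with the members moved to unequal extents, and their counts are read against the 18.9% of all genes called lower and the 17.7% called higher. Of 9 fibrous sheath partners, 8 fell in Kpna6ΔIBB/ΔIBB, 0 rose and Rhpn1 did not pass; their median log2 fold change was -0.32. Cabyr, a calcium-binding sheath protein, was at 387, 379 and 399 CPM in WT and at 221, 227 and 250 CPM in the mutant, a fall to 0.601 of WT (log2 fold change -0.74, SE 0.0486, edgeR adjusted p = 9.96e-06) and further than any of the 10 members. The spermatid glycolytic enzymes tied to the sheath fell less: Aldoart1, an aldolase, had a log2 fold change of -0.51 and Gapdhs, the sperm glyceraldehyde phosphate dehydrogenase, one of -0.37.

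Of 9 tested relatives and partners of the fibre proteins, out of 10 listed, 7 fell and 0 rose, with a median of -0.18. Odf3b and Odf3l1, relatives of Odf3, had log2 fold changes of -0.59 (edgeR adjusted p = 0.000563) and -0.58 (0.000522), and Oaz3, a spermatid antizyme, had -0.46 (2.13e-05). Odf3l2 did not pass the filter on low counts. In Kpna6-/- against WT, Odf3b was called lower (log2 fold change -0.38, SE 0.087, edgeR adjusted p = 0.0497) and no gene of this list higher.

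Among 17 subunits of protein kinase A and other anchoring proteins, 6 fell and 2 rose, with a median of -0.06, and 2 of 17 is a smaller share than the 17.7% of all genes that were higher. Prkar2a, a regulatory subunit that binds Akap3 and Akap4, was at 224, 247 and 227 CPM in WT and at 153, 162 and 151 CPM in Kpna6ΔIBB/ΔIBB (log2 fold change -0.58, SE 0.0483, edgeR adjusted p = 1.73e-05). Akap6 had -0.59, at 5.2 ± 0.377 CPM in the mutant, and Akap1, an anchor at mitochondria, had -0.39. The 2 that rose were Akap13 (0.29) and Prkacb (0.22), named here after their values were seen. Of 4 annulus genes only Sept4, a septin of the ring between midpiece and principal piece, fell (-0.39, edgeR adjusted p = 0.00045), a share near that of all genes. Of 8 genes of the manchette and of tail assembly, 6 fell and 0 rose, among them Hook1 (-0.47), Lrguk (-0.32) and Spef2 (-0.27), with a median of -0.15. Against Kpna6-/-, edgeR called 16.8% of all genes lower and 13.5% higher. In that comparison 7 of the 9 sheath partners, 6 of the 9 fibre relatives and 3 of the 8 manchette genes (Hook1, Lrguk and Meig1) were lower. Of the 17 kinase subunits and anchoring proteins 5 were lower and 2 higher, and of the 4 annulus genes 1 was lower.

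Several lists of cell type markers moved as well, and their counts are read against the 18.9% of all genes called lower and the 17.7% called higher. In Kpna6ΔIBB/ΔIBB against WT, all 8 markers of round spermatids fell (median -0.52), as did all 9 of elongating spermatids (median -0.36), whose summed level was 66410 to 76500 TPM in WT, 55540 to 63740 in Kpna6ΔIBB/ΔIBB and 74860 to 76360 in Kpna6-/-. None of 6 pachytene spermatocyte markers was called by edgeR, with log2 fold changes from -0.17 to 0.12, and 1, Piwil1, had an unadjusted p under 0.05. All 8 Sertoli cell markers rose (median 0.58), from 824 to 898 TPM summed in WT to 1304 to 1574 TPM, with 974 to 1050 TPM in Kpna6-/-. These levels are relative to the RNA of each library and not per testis or per cell. The study counted fewer Sertoli cells in adult testes of both mutant lines. Its quantitative PCR found no significant difference for most genes tested, among which were Rhox5, Wt1, clusterin and Cldn11. Of the other lists, 4 of 8 macrophage markers (C1qa, C1qc, Cd68 and Mrc1), 2 of 8 Leydig cell markers (Hsd3b1 and Lhcgr) and 2 of 7 peritubular and endothelial markers (Acta2 and Myh11) rose and 0 fell. The shares of the Leydig list and of the peritubular and endothelial list were not far above the 17.7% of all genes. Of 9 tested spermatogonial markers Dmrt1, Kit and Uchl1 rose and Gfra1 fell. In Kpna6-/- against WT, where edgeR called 1.6% of all genes, Gfra1 was also called lower (log2 fold change -0.47). There the Sertoli cell markers Aard (0.32) and Clu (0.25) were called higher, as was Svs5 of the seminal vesicle, and no other listed marker was called. These marker genes were named after their values were seen. The part of these shifts in the falls of the 10 genes was not tested. Of 6 markers of epididymis and seminal vesicle 3 were tested, of which Crisp1 and Svs5 rose and Svs4 fell, and their sum was 10 to 11.3 TPM in WT, 25.3 to 98.7 in Kpna6ΔIBB/ΔIBB and 14.7 to 21.3 in Kpna6-/-. Crisp1, an epididymal secretory protein, was at 67.6 CPM in replicate 3 of Kpna6ΔIBB/ΔIBB and at most 4.06 CPM elsewhere, and Lcn5 was at 0 in all 9. Without replicate 3 of Kpna6ΔIBB/ΔIBB, 9 members were still called lower.

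**Figure D5:**
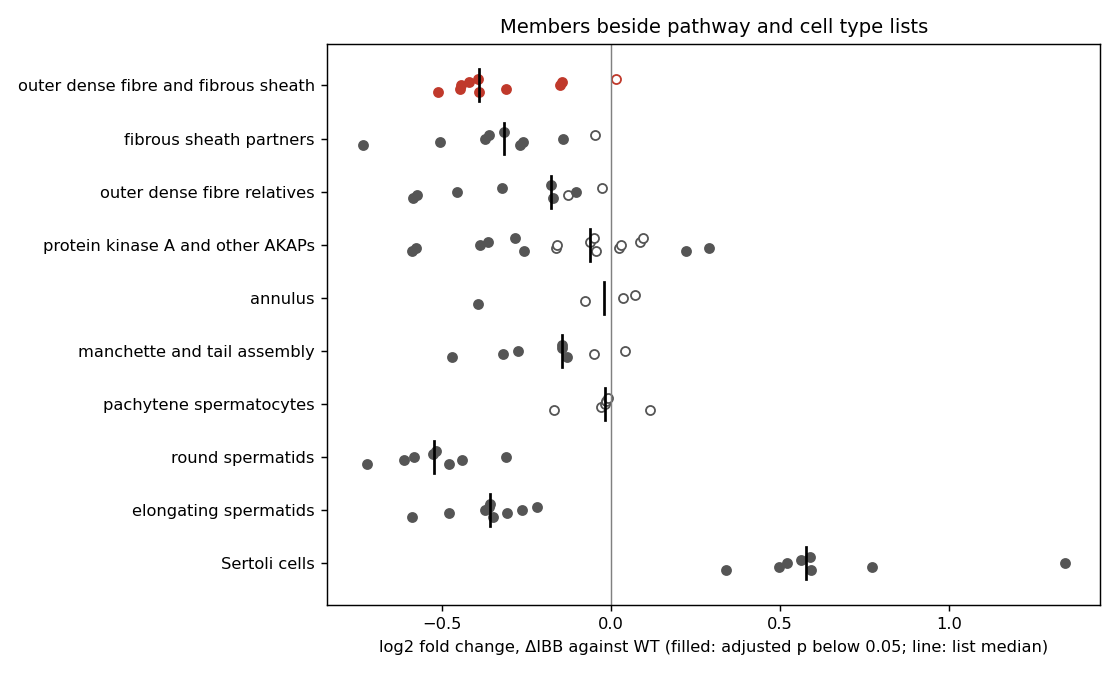
Log2 fold change in Kpna6ΔIBB/ΔIBB (ΔIBB) against WT (x axis) of the tested genes of each list, 1 point a gene, filled where the edgeR adjusted p was below 0.05, with a line at the list's median. The median of the 10 members (red, -0.39) lies between those of the round spermatid (-0.52) and elongating spermatid markers (-0.36), and that of the sheath partners is -0.32. The points of these lists overlap, and the Sertoli cell markers lie to the right of 0.

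Profiles over the 9 libraries were compared with Odf1 and Akap4 as differences from the WT mean in log2(TPM + 1), over 16709 other genes with a mean of at least 1 TPM. The genes nearest to Odf1 were Usp25 (root mean square distance 0.0207), Mapk6 (0.0288), Smcp (0.03), Prom1 (0.0364) and Osgin1 (0.0377). Smcp encodes a structural protein of the sperm mitochondrial capsule and is also on the list of elongating spermatid markers. Nearest to Akap4 were Atl3 (0.0365), Gm614 (0.0369), Isca1 (0.0401), Oxgr1 (0.0408) and Cep85l (0.0459). No other member was among these 5. The nearest member to Odf1 was Ropn1, at place 127, and the nearest to Akap4 was Odf2, at place 287. Oxgr1 had a mean of only 1.7 TPM. At that level the added 1 shrinks differences, so its small distance does not show a like fold change.

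Sequence shared with other genes in the files, at least 100 bases at 95% identity or more, was found for 1 member. Odf2 transcripts have a stretch of 144 bases at 95.1% identity to Spc24 and of 133 bases at 95.5% to Wipi2, and adding the counts of both genes left all 9 calls in place. An exon of Fsip1 overlaps Gm29232 by 133 bases on the same strand, and an exon of Odf2 overlaps the small nuclear RNA gene Gm23865 by 97 bases on the other strand. Neither of these genes had a transcript in the files, and reads from them could have been assigned to the members.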

How the data were processed

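Poly(A)-selected RNA of 9 testes was sequenced and quantified by the authors with kallisto (version 0.45 in the submitters' notes). The deposited files give expected counts, that is, estimated counts per transcript, and TPM, the deposited length-corrected level per transcript. Of 96626 transcripts, 95301 were assigned to 32035 genes with GENCODE M21 (GRCm38), and both units were summed per gene. Counts were rounded and tested with edgeR 4.0.16 (filterByExpr, TMM, quasi-likelihood test) on the 6 samples of each comparison, with Benjamini-Hochberg adjustment over all genes or transcripts and a threshold of 0.05. The study tested with sleuth. Alternatives were DESeq2 1.42.0, limma 3.58.1, other filters, scalings and counts, a replicate block and leaving out each sample. Same-numbered samples correlated between -0.056 and 0.078 in their deviations from group means, so numbers were not taken to pair them.

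The members and lists were chosen with earlier results of these data known. Named were all members and their transcripts of at least 1 TPM, Kpna6, the 3 largest called changes of each pathway list in Kpna6ΔIBB/ΔIBB against WT, and the 5 genes nearest in profile to Odf1 and Akap4. Intervals from counting were not used. The SDs are those between samples. The SE of an edgeR log2 fold change was derived as its absolute value over the square root of the quasi-likelihood F statistic. That statistic uses a spread between samples that is moderated across genes.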

Additional observations from a re-analysis of the deposited data

How the results depend on the processing

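The 9 calls in Kpna6ΔIBB/ΔIBB against WT, and the 9 against Kpna6-/-, were the same in number with every sample left out in turn, with DESeq2, without the filter, with the sleuth-type filter, with all 9 samples in 1 fit and with the replicate block, which changed no member's call. Against Kpna6-/-, limma on log2(TPM + 1) called 5 lower (Akap3, Akap4, Odf1, Odf3 and Ropn1) and Odf4 higher. In Kpna6-/- against WT, the count of members lower was 0 with each sample left out, 1 (Fsip2) without the filter on low counts and 1 with DESeq2; all-gene calls there ranged from 32 (limma) to 624 (no filter) around 299. Counts of member transcripts were less stable: in Kpna6ΔIBB/ΔIBB against WT, 15 became 9 with the replicate block and 6 to 12 with 1 sample left out (6 without Kpna6ΔIBB/ΔIBB replicate 1 or 2, 7, 8 and 9 without WT replicate 2, 3 and 1), and against Kpna6-/-, 14 became 7 to 15 (7 without Kpna6-/- replicate 2, 8 without replicate 1 or 3, 9 without Kpna6ΔIBB/ΔIBB replicate 1 or 2); fewer samples enter those fits. In Kpna6-/- against WT the transcript count was 0 with each sample left out.

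Directions turned only where the log2 value was near 0 and not called. With 1 sample left out, Odf4 ranged from -0.0103 to 0.0501 (Kpna6ΔIBB/ΔIBB against WT), -0.0143 to 0.0427 (against Kpna6-/-) and -0.0233 to 0.02 (Kpna6-/- against WT); in the last comparison Odf2 ranged from -0.0051 to 0.0422, Akap4 from -0.0344 to 0.0236 and Ropn1 from -0.0111 to 0.0373. There Odf4 was also -0.0012 with DESeq2, -0.0036 with length-scaled TPM counts, -0.0158 with limma and -0.0007 with shared sequence summed, and Akap4 0.0031 with library size only. In Kpna6ΔIBB/ΔIBB against WT, Odf2-201 was 0.0593 with library size only and Odf2-206 was -0.0054 without the filter and -0.033 to 0.0202 with 1 sample left out. The cause of these changes was not tested. At this depth the member with the fewest reads, Fsip1, held 1619 estimated counts or more in every library.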
